A study of Mus musculus with 19 samples.

Results

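Autophagy and lysosome genes were followed in the quadriceps of mice with spinal and bulbar muscular atrophy (SBMA), a neuromuscular disease caused by a polyglutamine expansion in the androgen receptor. The list held 33 genes named by symbol, of which 2 code for transcription factors, 21 for the machinery that builds and loads the autophagosome and 10 for proteins of the lysosome. All 33 were present on the array, by 52 of its 39429 probes, and the array carried 30214 genes in all. AR113Q mice are knock-in mice whose own androgen receptor locus codes for the expanded protein, so that the allele is not limited to muscle, and control (CTR) mice were wild type. All were males of the C57Bl6J strain, killed at 180 days of age. From 40 days on, their food was a purified normal chow diet, abbreviated NCD, or one high in fat, abbreviated HFD. Quadriceps RNA was read on 19 one-colour arrays, of which CTR mice gave 5 on the NCD and 4 on the HFD and AR113Q mice gave 5 on each. The labels do not say whether each array held the RNA of a single mouse, so p-values measure the spread between these samples, which may in part be technical.

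Autophagy starts when the ULK kinase complex and the Beclin lipid kinase complex mark a membrane, onto which WIPI proteins are recruited and to which ATG9 vesicles supply lipid. A pair of ubiquitin-like conjugation reactions, run by ATG7, ATG10, ATG3, ATG5, ATG12 and ATG16L1, attaches LC3 and GABARAP proteins to that membrane, where receptors such as p62 (Sqstm1), BNIP3 and NIX (Bnip3l) bind them with their cargo. The closed autophagosome fuses with the lysosome, whose membrane carries LAMP proteins and whose cathepsins and glycosidases digest the content. In muscle this route clears protein aggregates and mitochondria. The transcription factors TFEB and TFE3 bind E-box motifs near the start of many of these genes and are held in the cytoplasm by mTORC1, while FoxO factors drive several of them during fasting and denervation.

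Each value is the log2 of the background-subtracted signal of a probe relative to the 75th percentile of its array, so that 0 stands for that percentile, and levels are not compared between probes. The scanner software called 67.1% to 80.1% of probes well above background per array, which limits what dim probes can show. All 52 probes were well above background on all 19 arrays and were tested, none was saturated, and 19 of the 33 genes had a single probe while 14 had several. The tissue label was borne out by skeletal muscle transcripts, whose list mean lay between 7.28 and 8.08 on every array. Of its 10 probes, 9 were lower past the test in AR113Q muscle on each diet, and on the HFD 1 was higher past the test (0.32). Of 12 probes of denervation markers, 7 were higher on the NCD and 10 on the HFD. Slow fiber markers varied widely within groups, from -2.12 to 4.75 among CTR-HFD arrays, where replicate 3 was the highest, from -0.13 to 4.57 among CTR-NCD, from 4.37 to 5.53 among AR113Q-NCD and from -0.61 to 4.09 among AR113Q-HFD arrays. None of the 23 probes of macrophage markers, a cell type rich in lysosomes, passed the test in either genotype comparison, and their mean level ranged from -1.18 to -0.50 in CTR-NCD from -1.23 to -0.71 in AR113Q-NCD, from -1.08 to -0.90 in CTR-HFD and from -1.34 to -0.64 in AR113Q-HFD arrays. In whole muscle, fewer cells of a type and less RNA per cell cannot be told apart, and the part of fiber type or denervation in the results below was not tested.

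The promoters of these genes are shown because TFEB and TFE3 act through a short sequence, CACGTG, which reads the same on both strands. RefSeq promoter windows (GRCm38.p6, 250 bases before to 50 after the start) were at hand for 27 of the 33 genes, and Becn1, Atg12, Atg16l1, Map1lc3a, Bnip3l and Ctsb had none in the table. CACGTG lay in the windows of 9 of these 27 genes (33.3%), against 8.09% of 27025 genes in the whole table. The longer form TCACGTGA, which also reads alike on both strands and contains CACGTG, lay in 4 of the 27 (14.8%), against 1.12% of all genes. The FoxO motif GTAAACA, searched on both strands, was found in none of the 27, against 4.05% of all genes. A match is a run of letters and not a measured binding site. The stretches that hold the matches are given on each gene's own strand, with CACGTG or TCACGTGA in capitals, at GRCm38.p6 chr16:45158725-45158773 (Atg3, plus strand), chr10:44268315-44268338 (Atg5, plus), chr6:114670954-114670979 (Atg7, plus), chr7:138909599-138909624 (Bnip3, minus), chr8:13159090-13159160 (Lamp1, plus), chr8:3500438-3500489 (Mcoln1, plus), chr7:142387910-142388077 (Ctsd, minus), chr13:64370741-64370766 (Ctsl, minus) and chrX:134601184-134601242 (Gla, minus).
Atg3: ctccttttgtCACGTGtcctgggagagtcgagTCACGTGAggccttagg
Atg5: gagcgcttgcCACGTGgtcttggt
Atg7: tattggtggtCACGTGtgcagtaagt
Bnip3: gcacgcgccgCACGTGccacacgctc
Lamp1: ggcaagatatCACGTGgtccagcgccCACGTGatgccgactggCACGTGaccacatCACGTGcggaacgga
Mcoln1: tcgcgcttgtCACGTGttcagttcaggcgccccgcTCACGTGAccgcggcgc
Ctsd: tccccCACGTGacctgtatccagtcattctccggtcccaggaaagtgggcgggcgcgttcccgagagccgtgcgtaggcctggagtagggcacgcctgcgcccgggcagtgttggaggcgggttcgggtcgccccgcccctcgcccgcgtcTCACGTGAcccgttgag
Ctsl: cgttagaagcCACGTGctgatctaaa
Gla: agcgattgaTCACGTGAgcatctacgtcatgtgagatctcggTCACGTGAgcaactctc
Lamp1 carried 4 copies within the 71 bases before its start, the most of any member. These 9 genes did not move together in AR113Q muscle. Atg7 and Ctsl were higher on both diets, Lamp1 and Ctsd were lower on both, Bnip3 and Mcoln1 were lower on the HFD, and Atg3, Atg5 and Gla did not pass the test in either comparison. A gene with several probes is counted here by any probe that passed.

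In AR113Q muscle genes of the pathway went both ways. On the NCD, 8 of the 52 probes (15.4%), from 7 genes, were higher than in CTR muscle, where 8.08% of all 32026 probes tested were higher, and 9 probes (17.3%), also from 7 genes, were lower, against 9.3% of all probes (limma, Benjamini-Hochberg adjusted p under 0.05 over all probes). On the HFD, 7 probes (13.5%) from 6 genes were higher, against 7.73% of all probes, and 10 (19.2%) from 9 genes were lower, against 10.2%. Both classes held changes in both directions. Of the 36 autophagosome probes, 6 were higher and 4 lower on the NCD and 5 higher and 6 lower on the HFD, and of the 13 lysosomal probes, 2 were higher and 5 lower on the NCD and 2 higher and 4 lower on the HFD. Whether the classes differ from each other was not tested. The median log2 fold change of the autophagosome probes was 0.00 on the NCD and -0.09 on the HFD, and that of the lysosomal probes was -0.13 and -0.19, beside -0.06 and -0.08 over all probes tested. The lysosomal median on the NCD turned to 0.07 with another background correction, and in the authors' own normalised values the lysosomal medians were 0.00 on both diets and the autophagosome median on the HFD was 0.02. Most changes were small, and with the added limits of 1.5-fold up or 0.6-fold down 1 probe was higher and none lower on the NCD (2.28% and 2.05% of all probes), and 3 were higher and none lower on the HFD (2.83% and 1.89%). Counted by overlap alone, every AR113Q-NCD array lay above every CTR-NCD array for 7 probes and below for 12 (7.17% and 8.27% of all probes), and on the HFD this held for 6 above and 9 below (7.19% and 8.5%).

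**Figure D1:**
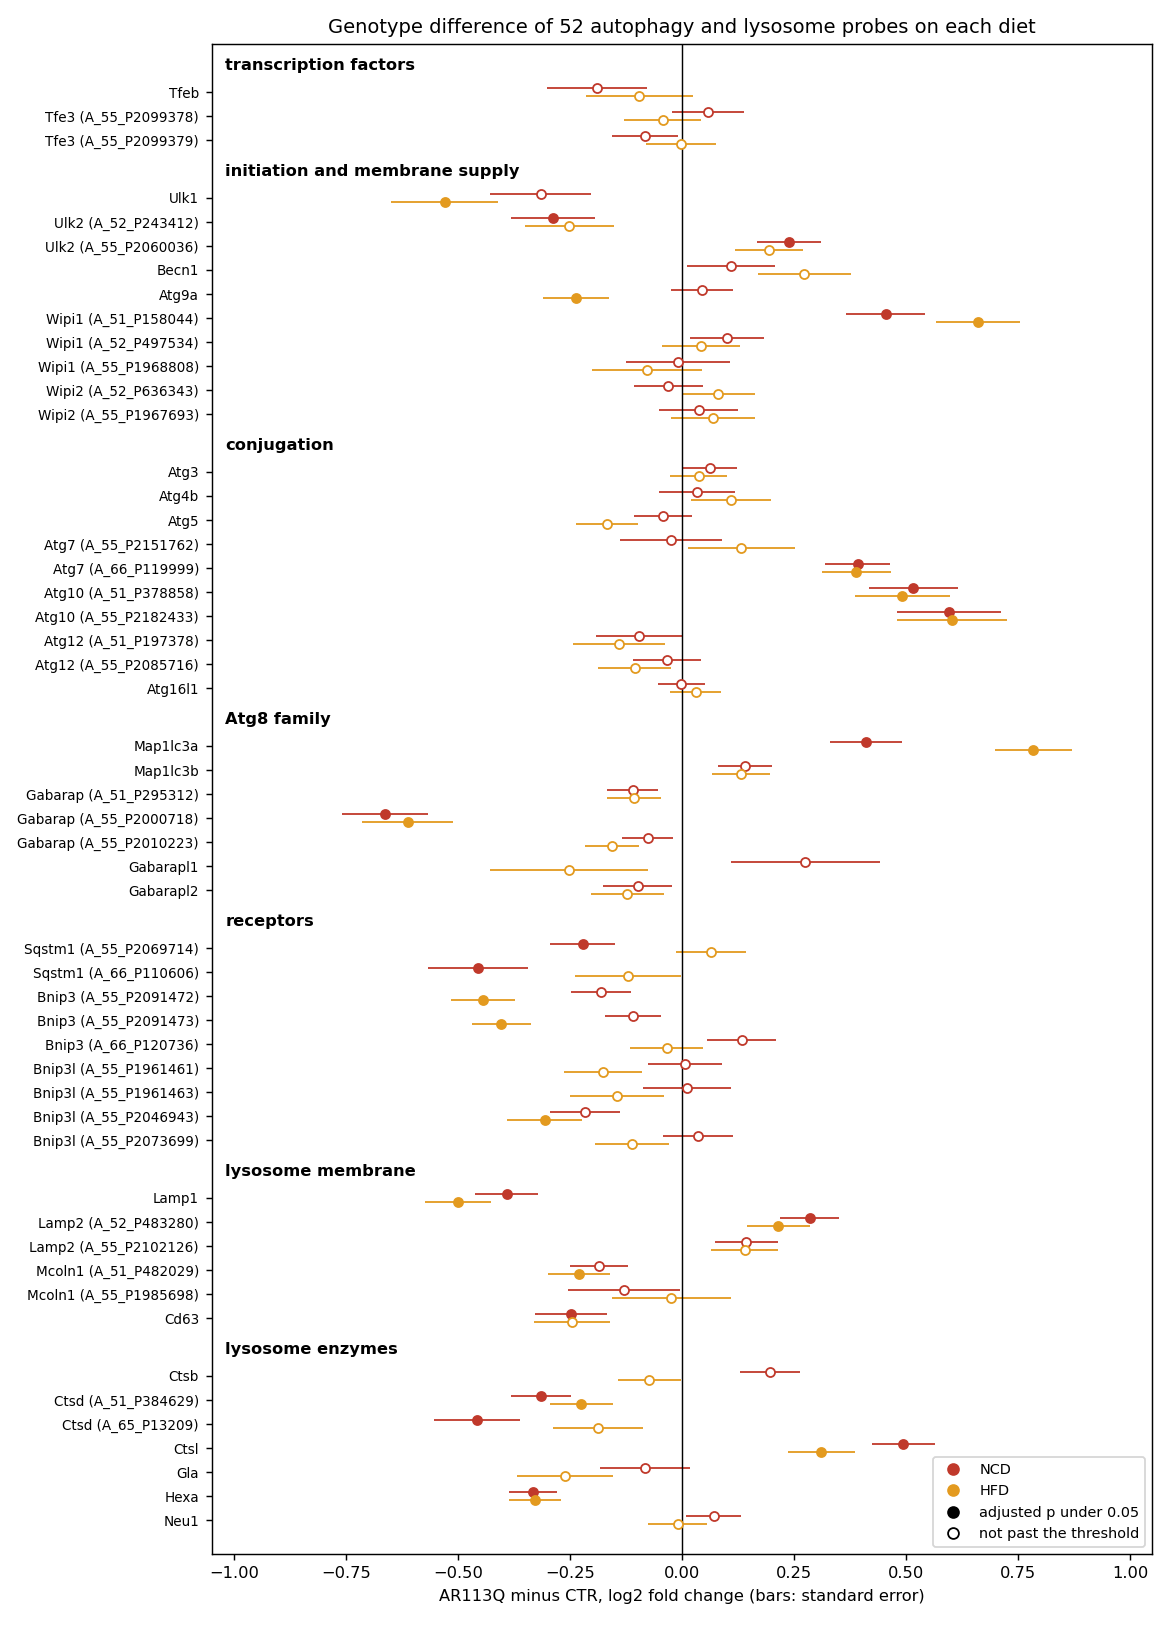
Log2 fold change of AR113Q over CTR muscle (horizontal axis) for each of the 52 probes, grouped by role, on the NCD (red) and the HFD (orange). Bars are standard errors from the limma fit and filled symbols mark an adjusted p under 0.05; 8 probes were higher and 9 lower on the NCD, and 7 higher and 10 lower on the HFD.

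The groups compared on the 2 diets shared no array, but both comparisons came from a single model with the same estimate of the spread. The calls on the 2 diets are therefore not independent. Without CTR-HFD replicate 3, for example, 12 rather than 9 member probes were lower on the NCD. Of the 52 probes, 7 from 6 genes (Wipi1, Ctsl, both probes of Atg10, Map1lc3a, Lamp2 and Atg7) were higher in AR113Q muscle on both diets, which is 13.5% beside 5.02% of all probes tested. The 4 probes that were lower on both diets, of Hexa, Ctsd, Gabarap and Lamp1, made up 7.69%, beside 6.85% of all probes. No member probe passed the test in opposite directions on the 2 diets, and neither did any other probe tested. A further 6 probes passed on the NCD only and 6 on the HFD only (11.5% each), beside 5.5% and 6.01% of all probes. The sign was the same on both diets for 39 of 52 (75%), beside 76.5% of all probes. The arrays lay on 5 slides. Within each slide that held both genotypes, the probes that passed had the sign of their call, on 5 of 5 slides on the NCD and 4 of 4 on the HFD, except an Ulk2 probe (A_55_P2060036, 4 of 5) and an Atg10 probe (A_51_P378858, 3 of 4). These are the arrays that gave the calls, so the agreement of sign largely follows from the selection and is not a replication. Without CTR-HFD replicate 3, the array with the highest slow fiber level of its group, 6 probes were higher and 11 lower on the HFD, and without CTR-HFD replicate 4 only 6 were lower.

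**Figure D2:**
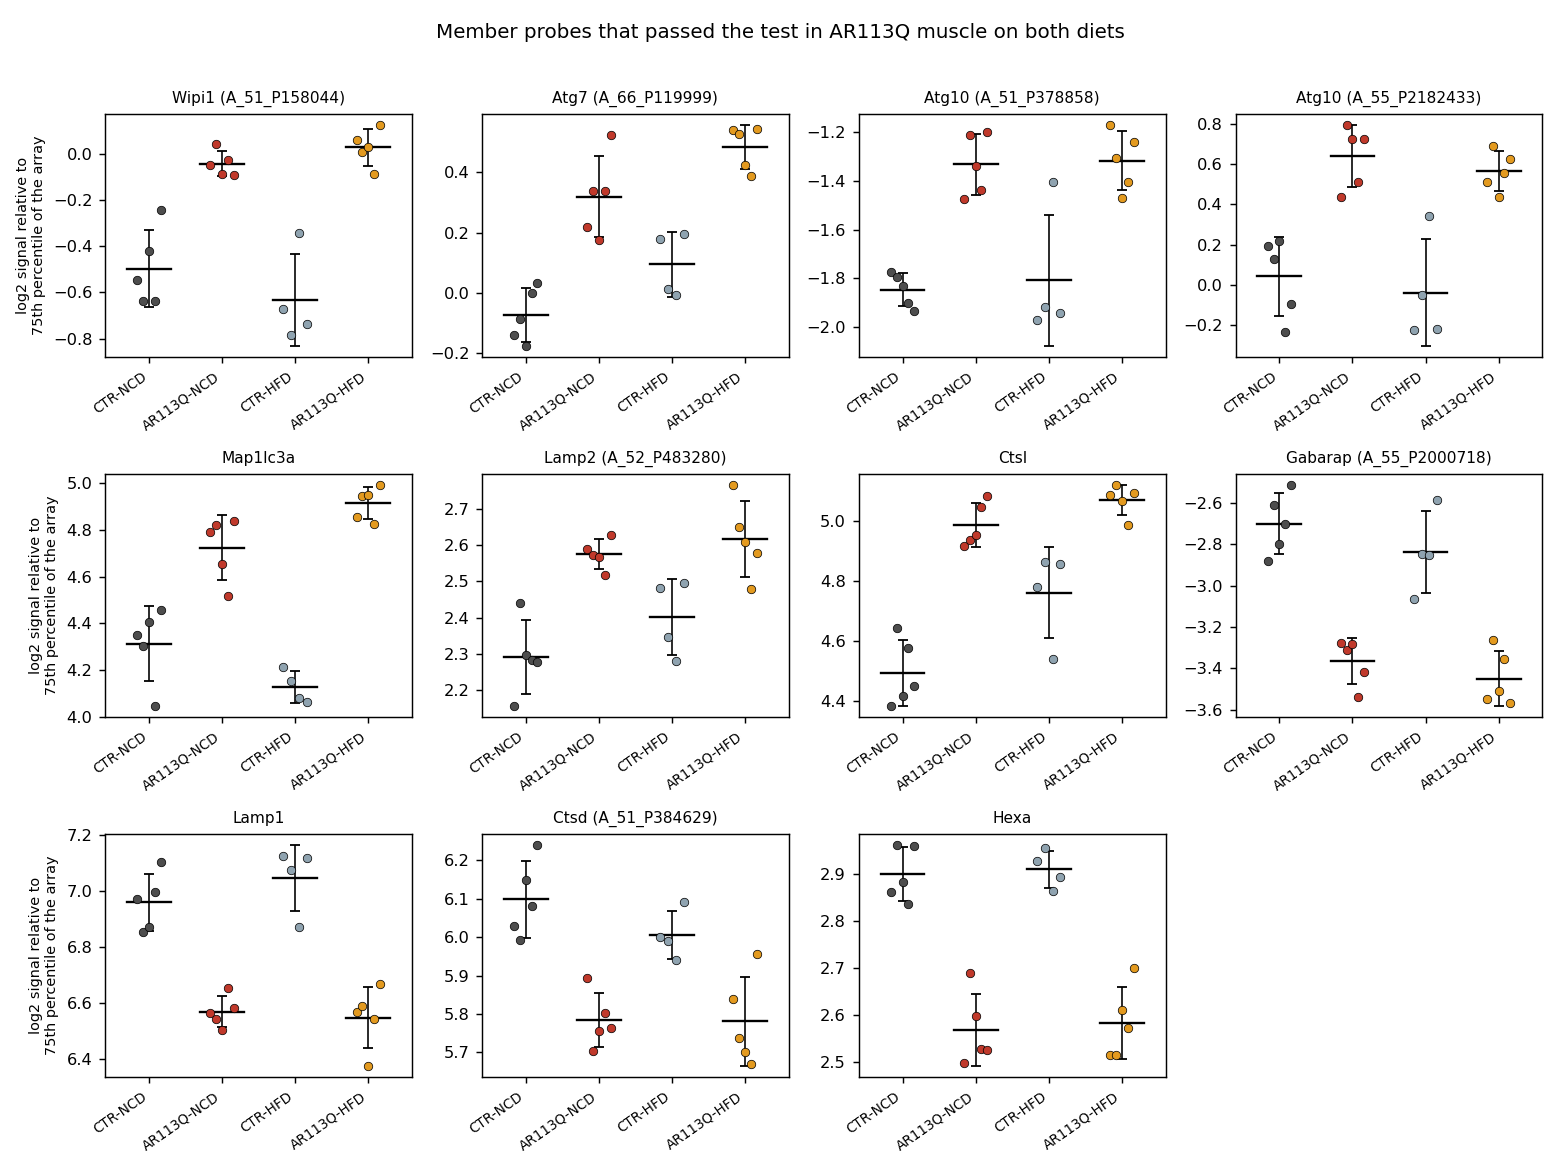
Levels (log2 signal relative to the 75th percentile of the array) of the 11 probes that passed the test on both diets, 1 point an array, with the group mean and SD. The AR113Q means lie above the CTR means in the first 7 panels and below them in the last 4, and CTR-HFD replicate 3, the CTR-HFD point nearest to AR113Q-HFD for Wipi1, Atg10 and Lamp1, is at -0.34 for Wipi1.

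Neither transcription factor passed the test. Tfeb (A_55_P1997898, mm9 chr17:47929089-47929148) was at 1.90, 1.65, 1.90, 1.62 and 2.03 in CTR-NCD muscle and at 1.73, 1.71, 1.57, 1.48 and 1.66 in AR113Q-NCD muscle. The groups overlapped, with a log2 fold change of -0.19 ± 0.11 (SE, limma, adjusted p = 0.297). On the HFD the Tfeb difference was -0.096 ± 0.119 (adjusted p = 0.66), and AR113Q-HFD arrays spanned 1.43 to 1.91 and CTR-HFD arrays 1.5 to 1.97. The 2 probes of Tfe3, its close relative, lay between -0.08 and 0.06 in both genotype comparisons, with arrays that overlapped throughout.

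Among the genes that start an autophagosome, the kinase gene Ulk1 was lower and a probe of the phosphoinositide-binding Wipi1 was higher. Ulk1 (A_55_P1977314, mm9 chr5:111213514-111213573) was at 4.98, 5.06, 4.67 and 5.23 in CTR-HFD muscle and at 4.44, 4.51, 4.26, 4.57 and 4.50 in AR113Q-HFD muscle. Every AR113Q-HFD array lay below every CTR-HFD array, and the log2 fold change was -0.53 ± 0.12 (adjusted p = 0.00473). That call was lost with median centring. On the NCD Ulk1 was at 4.63, 4.59, 4.58, 4.83 and 5.04 in CTR muscle and at 4.45, 4.44, 4.17, 4.57 and 4.45 in AR113Q muscle. These groups did not overlap either, but at -0.32 ± 0.11 the adjusted p was 0.0642, and 0.00615 with the replicate number, which on the NCD is also the slide, as a block. The 2 probes of the related kinase gene Ulk2 went opposite ways on the NCD, at -0.29 ± 0.093 (A_52_P243412, adjusted p = 0.0415) and 0.24 ± 0.072 (A_55_P2060036, adjusted p = 0.0279), and these calls were lost in 14 of 30 and 9 of 29 alternatives, 10 and 6 of them with a single array left out. Neither passed on the HFD (-0.25 and 0.19), where both passed with the slide as a block, still in opposite directions (-0.28 and 0.20, adjusted p = 0.0455 and 0.0471).

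For Wipi1, the probe A_51_P158044 (mm9 chr11:109436607-109436666) was at -0.55, -0.64, -0.42, -0.64 and -0.24 in CTR-NCD and at -0.05, 0.04, -0.09, -0.03 and -0.09 in AR113Q-NCD muscle. On the HFD it was at -0.67, -0.78, -0.34 and -0.74 in CTR and at 0.06, 0.01, 0.03, -0.09 and 0.13 in AR113Q muscle. The genotypes were separate on both diets, and the log2 fold changes were 0.45 ± 0.089 (adjusted p = 0.00168) and 0.66 ± 0.094 (adjusted p = 0.000119). The 2 other Wipi1 probes, which lie at other positions on the chromosome, read differences of 0.10 and -0.01 on the NCD and 0.04 and -0.08 on the HFD, none past the test. Atg9a, which codes for the membrane protein of the lipid-supplying vesicles, was at -0.12, -0.42, -0.19 and -0.27 in CTR-HFD and at -0.50, -0.43, -0.43, -0.44 and -0.63 in AR113Q-HFD muscle. The Atg9a groups touched without overlap on the HFD (-0.24 ± 0.074, adjusted p = 0.0331), a call lost in 8 of 30 alternatives, 5 of them with a single array left out, while on the NCD the difference was 0.04. Becn1, the Beclin gene, differed by 0.11 on the NCD and by 0.27 on the HFD (adjusted p = 0.0844, or 0.0405 with quantile normalisation), and the Wipi2 probes lay between -0.03 and 0.08.

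Of the 7 genes for the conjugation enzymes and their partners, 2 passed the test, and both were higher. Atg10, the E2-like enzyme that joins ATG12 to ATG5, was read by 2 probes far apart in the gene, at mm9 chr13:91075030-91075089 (A_51_P378858) and chr13:91180456-91180515 (A_55_P2182433). The second was at 0.19, 0.13, 0.22, -0.23 and -0.10 in CTR-NCD and at 0.44, 0.80, 0.72, 0.51 and 0.72 in AR113Q-NCD muscle, with no overlap. On the HFD it was at -0.22, -0.05, 0.34 and -0.22 in CTR and at 0.51, 0.69, 0.44, 0.56 and 0.62 in AR113Q muscle, again with none. Its log2 fold changes were 0.60 ± 0.12 on the NCD (adjusted p = 0.00166) and 0.60 ± 0.12 on the HFD (adjusted p = 0.0023), and the other Atg10 probe read 0.52 and 0.49 (adjusted p = 0.00162 and 0.00354). The other Atg10 probe was at -1.97, -1.92, -1.41 and -1.94 in CTR-HFD muscle, and its AR113Q-HFD arrays spanned -1.47 to -1.17, so that CTR-HFD replicate 3 alone lay among them.

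Atg7, the E1-like enzyme that activates both ubiquitin-like proteins, was higher by the probe A_66_P119999 (mm9 chr6:114809893-114809952). In CTR-NCD muscle it was at -0.14, -0.08, -0.18, 0.00 and 0.03 and in AR113Q-NCD muscle at 0.22, 0.34, 0.18, 0.34 and 0.52. In CTR-HFD muscle it was at 0.18, 0.01, -0.01 and 0.20 and in AR113Q-HFD muscle at 0.54, 0.53, 0.42, 0.39 and 0.54. The genotypes did not overlap on either diet, and the difference was 0.39 on each (SE 0.072 and 0.077, adjusted p = 0.0011 and 0.00179). In the authors' own normalised values the call was lost on both diets. It was also lost with the normexp background correction on the NCD and with median centring on the HFD. The second Atg7 probe, A_55_P2151762, read -0.02 and 0.13 and did not pass. Atg3, Atg4b, Atg5, both probes of Atg12 and Atg16l1, which complete the conjugation and delipidation steps, lay between -0.17 and 0.11 in both comparisons, where the smallest adjusted p was 0.111.

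The Atg8 family, the small proteins attached to the autophagosome membrane, held the largest rise of any member on the HFD. Map1lc3a (LC3A, A_51_P464981, mm9 chr2:155103435-155103494) was at 4.35, 4.30, 4.41, 4.05 and 4.46 in CTR-NCD and at 4.79, 4.82, 4.65, 4.51 and 4.84 in AR113Q-NCD muscle. On the HFD it was at 4.22, 4.15, 4.08 and 4.06 in CTR and at 4.86, 4.94, 4.95, 4.83 and 4.99 in AR113Q muscle. The genotypes were separate on both diets, by 0.41 ± 0.081 on the NCD (adjusted p = 0.00181) and 0.78 ± 0.086 on the HFD (adjusted p = 1.28e-05), and the 2-sided exact permutation p was 0.00794 on each diet, the smallest these groups allow. Both calls of Map1lc3a were lost with the normexp background correction, and the NCD call also with median centring. Map1lc3b (LC3B) was at 4.59, 4.46, 4.52, 4.59 and 4.54 in CTR-NCD and at 4.69, 4.65, 4.56, 4.69 and 4.81 in AR113Q-NCD muscle. These ranges overlapped at a single AR113Q array, and the differences of 0.14 on the NCD (adjusted p = 0.133) and 0.13 on the HFD (adjusted p = 0.186) did not pass. With quantile normalisation the Map1lc3b difference was 0.24 on the NCD (adjusted p = 0.0082) and 0.27 on the HFD (adjusted p = 0.0059). In the authors' own normalised values Map1lc3b also passed as higher on both diets.

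Gabarap was lower on both diets by 1 of its 3 probes. The probe A_55_P2000718 was at -2.88, -2.61, -2.80, -2.70 and -2.51 in CTR-NCD and at -3.28, -3.31, -3.28, -3.54 and -3.42 in AR113Q-NCD muscle, a log2 difference of -0.66 ± 0.096 (adjusted p = 0.000136). It was lower on the HFD as well (-0.61, adjusted p = 0.000434), and arrays did not overlap on either diet. Both calls of this probe were lost with the normexp background correction. Its 60 bases, read from the scanner files, equal the 60 bases directly before the RefSeq start of Gabarap, at GRCm38.p6 chr11:69991310-69991369 on the plus strand. The sequence is shown because it lies before that start, and whether the probe reads Gabarap RNA was not tested.
Gabarap probe A_55_P2000718: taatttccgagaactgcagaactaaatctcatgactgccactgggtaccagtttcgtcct
The 2 other Gabarap probes, which lie downstream on that strand, ranged over 3.45 to 3.78 and 4.13 to 4.49 in all arrays and read differences of -0.11 and -0.08 on the NCD and -0.11 and -0.16 on the HFD, none past the test, although the last (A_55_P2010223) passed with the replicate number as a block (-0.17, adjusted p = 0.0372). Gabarapl2 differed by -0.10 and -0.12. Gabarapl1 had the widest spread of the family, at 5.13 to 6.0 on CTR-HFD arrays and at 4.91 to 5.59 on AR113Q-HFD arrays, and its differences of 0.28 on the NCD and -0.25 on the HFD (adjusted p = 0.31 and 0.383) did not pass.

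The cargo receptors that passed the test were lower. Sqstm1, which codes for p62, was lower in AR113Q muscle on the NCD by both probes. The probe A_66_P110606 (mm9 chr11:50012868-50012927) was at 0.00, -0.05, 0.02, -0.05 and 0.08 in CTR-NCD and at -0.36, -0.32, -0.67, -0.55 and -0.39 in AR113Q-NCD muscle. The probe A_55_P2069714 (mm9 chr11:50015985-50016044) was at 4.42, 4.33, 4.30, 4.37 and 4.39 in CTR-NCD and at 4.24, 4.28, 4.04, 3.96 and 4.17 in AR113Q-NCD muscle. Both were without overlap, at -0.46 ± 0.11 (adjusted p = 0.0085) and -0.22 ± 0.073 (adjusted p = 0.046), with an exact permutation p of 0.00794 each. The call of A_66_P110606 was lost in 2 of 30 alternatives, median centring and the normexp background correction. The call of A_55_P2069714 was lost in 19 of 30 alternatives, 14 of them with a single array left out, and its sign turned in 1 more, the normexp background correction. On the HFD both overlapped between genotypes, and AR113Q-HFD muscle was at -0.13, -0.41, -0.50, -0.58 and 0.11 by the first probe and at 4.38, 4.38, 4.45, 4.19 and 4.40 by the second (differences of -0.12 and 0.064, adjusted p = 0.557 and 0.651).

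Bnip3, a receptor on mitochondria, was lower in AR113Q muscle on the HFD. By the probe A_55_P2091473 (mm9 chr7:146082760-146082819) it was at 6.63, 6.64, 6.62 and 6.61 in CTR-HFD and at 6.20, 6.25, 6.13, 6.20 and 6.33 in AR113Q-HFD muscle. The CTR-HFD arrays lay close together and above all AR113Q-HFD arrays, and the log2 fold change was -0.40 ± 0.066 (adjusted p = 0.000389). The neighbouring probe A_55_P2091472 fell by 0.44 (adjusted p = 0.000354), while another probe nearby, A_66_P120736, read -0.034. On the NCD the 3 probes read -0.18, -0.11 and 0.13 and none passed. Bnip3l, its relative, was lower on the HFD by 1 of 4 probes (A_55_P2046943, -0.31, adjusted p = 0.0155, or -0.26 and 0.0612 without CTR-HFD replicate 4). On the NCD the same probe was at -0.22 (adjusted p = 0.0692) and below CTR on 5 of 5 slides, and it passed with the slide as a block (adjusted p = 0.0462). The 3 other Bnip3l probes read -0.18, -0.14 and -0.11 on the HFD, where the first, A_55_P1961461, passed with the slide as a block (-0.20, adjusted p = 0.0331), and 0.01, 0.01 and 0.04 on the NCD.

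Lysosomal membrane genes went both ways. Lamp1, the gene with 4 E-boxes before its start (above), was at 6.97, 6.85, 6.87, 7.0 and 7.11 in CTR-NCD and at 6.56, 6.54, 6.50, 6.66 and 6.58 in AR113Q-NCD muscle (A_55_P2059342, mm9 chr8:13175277-13175336). On the HFD it was at 7.12, 7.07, 6.87 and 7.12 in CTR and at 6.57, 6.59, 6.37, 6.54 and 6.67 in AR113Q muscle. AR113Q muscle was lower on every array, by 0.39 ± 0.070 on the NCD (adjusted p = 0.000808) and 0.50 ± 0.074 on the HFD (adjusted p = 0.000162), as log2 differences. The NCD call of Lamp1 was lost with median centring and with the normexp background correction, and the HFD call with the latter. Lamp2, its partner, which also serves in chaperone-mediated autophagy, was higher by the probe A_52_P483280, with 2.16, 2.44, 2.30, 2.28 and 2.28 in CTR-NCD and 2.59, 2.57, 2.57, 2.52 and 2.63 in AR113Q-NCD muscle. Those groups did not overlap (0.28 ± 0.066, adjusted p = 0.00625), whereas on the HFD they did (0.22 ± 0.070, adjusted p = 0.0428), and that call was lost in 18 of 30 alternatives, 12 of them with a single array left out. The second Lamp2 probe read 0.14 on each diet and did not pass. Mcoln1, the lysosomal calcium channel, was lower on the HFD by the probe A_51_P482029, where 1 CTR array overlapped (-0.23 ± 0.069, adjusted p = 0.0275). That call was lost in 10 of 30 alternatives, 5 of them with a single array left out. On the NCD this probe was at -0.19 (adjusted p = 0.0606, or 0.02 with the replicate number as a block). The other Mcoln1 probe, A_55_P1985698, read -0.13 on the NCD and -0.02 on the HFD and did not pass. Cd63, a tetraspanin of lysosomes and late endosomes, was lower on the NCD (-0.25 ± 0.080, adjusted p = 0.0398), a call lost in 12 of 30 alternatives, 8 of them with a single array left out, and its sign turned in 1 more, the normexp background correction. It stood at -0.25 on the HFD as well (adjusted p = 0.0543), where it passed with the slide as a block (adjusted p = 0.0183).

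Lysosomal enzymes also divided, the protease Ctsl being higher and Ctsd and Hexa lower. Ctsl, cathepsin L, a cysteine protease known to be induced in wasting muscle, was at 4.38, 4.64, 4.42, 4.58 and 4.45 in CTR-NCD and at 4.92, 4.94, 4.95, 5.05 and 5.08 in AR113Q-NCD muscle (A_51_P253547, mm9 chr13:64465287-64465346). On the HFD it was at 4.78, 4.86, 4.54 and 4.85 in CTR and at 5.08, 5.12, 5.07, 4.99 and 5.09 in AR113Q muscle. The genotypes were separate on both diets, with log2 fold changes of 0.49 ± 0.071 (adjusted p = 0.000127) and 0.31 ± 0.075 (adjusted p = 0.00761). The HFD call of Ctsl was lost in 3 of 30 alternatives, median centring, the normexp background correction and only the groups compared. Ctsb, cathepsin B, was 0.20 ± 0.067 higher in AR113Q-NCD muscle in the mean, did not pass (adjusted p = 0.0518), and passed with the replicate number as a block (adjusted p = 0.0237). On the HFD the Ctsb difference was -0.073.

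Hexa, a subunit of the hexosaminidase that degrades gangliosides, was at 2.86, 2.96, 2.88, 2.84 and 2.96 in CTR-NCD and at 2.50, 2.69, 2.60, 2.53 and 2.53 in AR113Q-NCD muscle (A_51_P282667, mm9 chr9:59411712-59411771). It was at 2.93, 2.96, 2.86 and 2.89 in CTR-HFD and at 2.51, 2.52, 2.61, 2.57 and 2.70 in AR113Q-HFD muscle. No AR113Q array reached a CTR array, and the log2 fold change was -0.33 on each diet (SE 0.055 and 0.058, adjusted p = 0.000408 and 0.000745). The Hexa calls on both diets were lost with median centring and with the normexp background correction. Ctsd, cathepsin D, an aspartic protease, was at 6.03, 5.99, 6.15, 6.08 and 6.24 in CTR-NCD and at 5.89, 5.70, 5.76, 5.80 and 5.76 in AR113Q-NCD muscle (A_51_P384629). That is a difference of -0.31 ± 0.067 (adjusted p = 0.00317), and its second probe read -0.46 (adjusted p = 0.00288). Both of these NCD calls were lost with median centring and with the normexp background correction. On the HFD the first Ctsd probe read -0.23 (adjusted p = 0.0351) with a single AR113Q array at 5.96 among the CTR values, and the second read -0.19 (adjusted p = 0.241). That HFD call was lost in 10 of 29 alternatives, 6 of them with a single array left out, and quantile normalisation gave -0.059 (adjusted p = 0.607). The glycosidase genes Gla and Neu1 did not pass, at -0.083 and 0.070 on the NCD and -0.26 and -0.0096 on the HFD. Gla was lower on 4 of 4 slides on the HFD and passed there with the slide as a block (-0.22, adjusted p = 0.0173). The Gla probe shares a run of 20 bases with the promoter windows of 26 other genes.

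**Figure D3:**
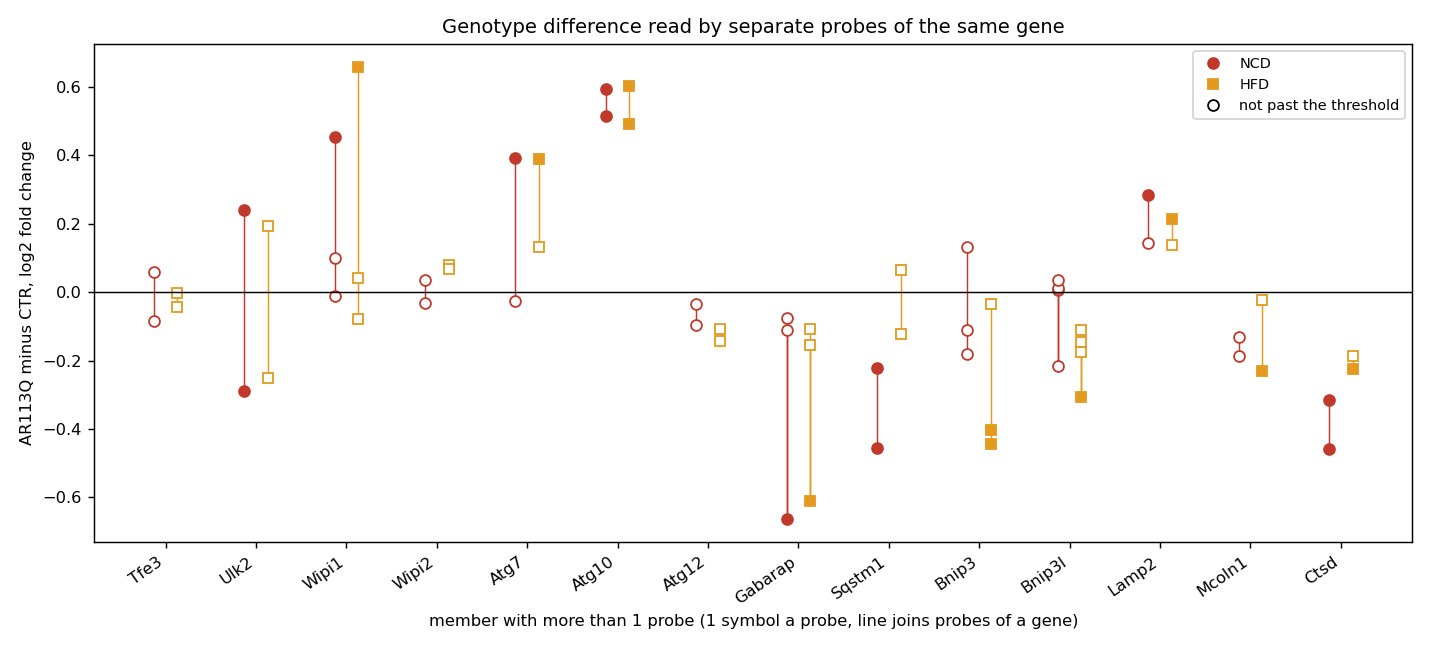
Log2 fold change of AR113Q over CTR muscle (vertical axis) by each probe of the 14 genes with more than 1 probe, on the NCD (red circles) and the HFD (orange squares); filled symbols passed the test and lines join probes of a gene. Both Atg10 probes lie between 0.49 and 0.60, whereas the Ulk2 probes lie on either side of 0 and Gabarap rests on a single probe at -0.66 and -0.61.

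The arrays also asked whether the HFD moved these genes within a genotype. No member passed the test between AR113Q-HFD and AR113Q-NCD muscle, where 0.00312% of all probes were higher and 0.0219% lower. None passed between CTR-HFD and CTR-NCD muscle or for the interaction of genotype and diet either, where 0% of all probes did. At an unadjusted p under 0.05, 3 member probes were higher and 2 lower with the HFD in AR113Q muscle, 7 higher and 5 lower in CTR muscle, and 2 positive and 5 negative for the interaction (limma). As shares of the 52 probes these are 5.77% and 3.85%, 13.5% and 9.62%, and 3.85% and 9.62%, beside 3.23% and 3.46%, 4.95% and 3.75%, and 1.98% and 2.71% of all probes. A p that misses the threshold does not show that the diets act alike, and a member that passed between genotypes on 1 diet only is not shown to differ between the diets. These comparisons use the arrays of the genotype comparisons above.

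The members with the smallest p of these comparisons were Ctsl, Map1lc3a, Bnip3, Sqstm1 and Atg16l1. In CTR muscle Ctsl was 0.27 ± 0.075 higher in the mean with the HFD (adjusted p = 0.351), where AR113Q muscle differed by 0.083. Map1lc3a was 0.19 higher with the HFD in AR113Q muscle and at -0.18 in CTR muscle, an interaction of 0.37 ± 0.12 (adjusted p = 0.918). Bnip3 went the other way, at -0.095 in AR113Q and 0.20 in CTR muscle, an interaction of -0.29 ± 0.091 (adjusted p = 0.918). Sqstm1 by A_55_P2069714 was 0.22 higher with the HFD in AR113Q muscle (adjusted p = 0.555) and at -0.068 in CTR muscle. By A_66_P110606 it differed by -0.18 in CTR muscle without overlap, for an exact permutation p of 0.00794 (0.0318 adjusted over 20 exact tests), while the limma p, which pools the spread of all groups, was 0.148. Atg16l1 was lower in the mean with the HFD in both genotypes, at -0.17 in AR113Q (adjusted p = 0.529) and -0.20 in CTR muscle (adjusted p = 0.355).

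**Figure D4:**
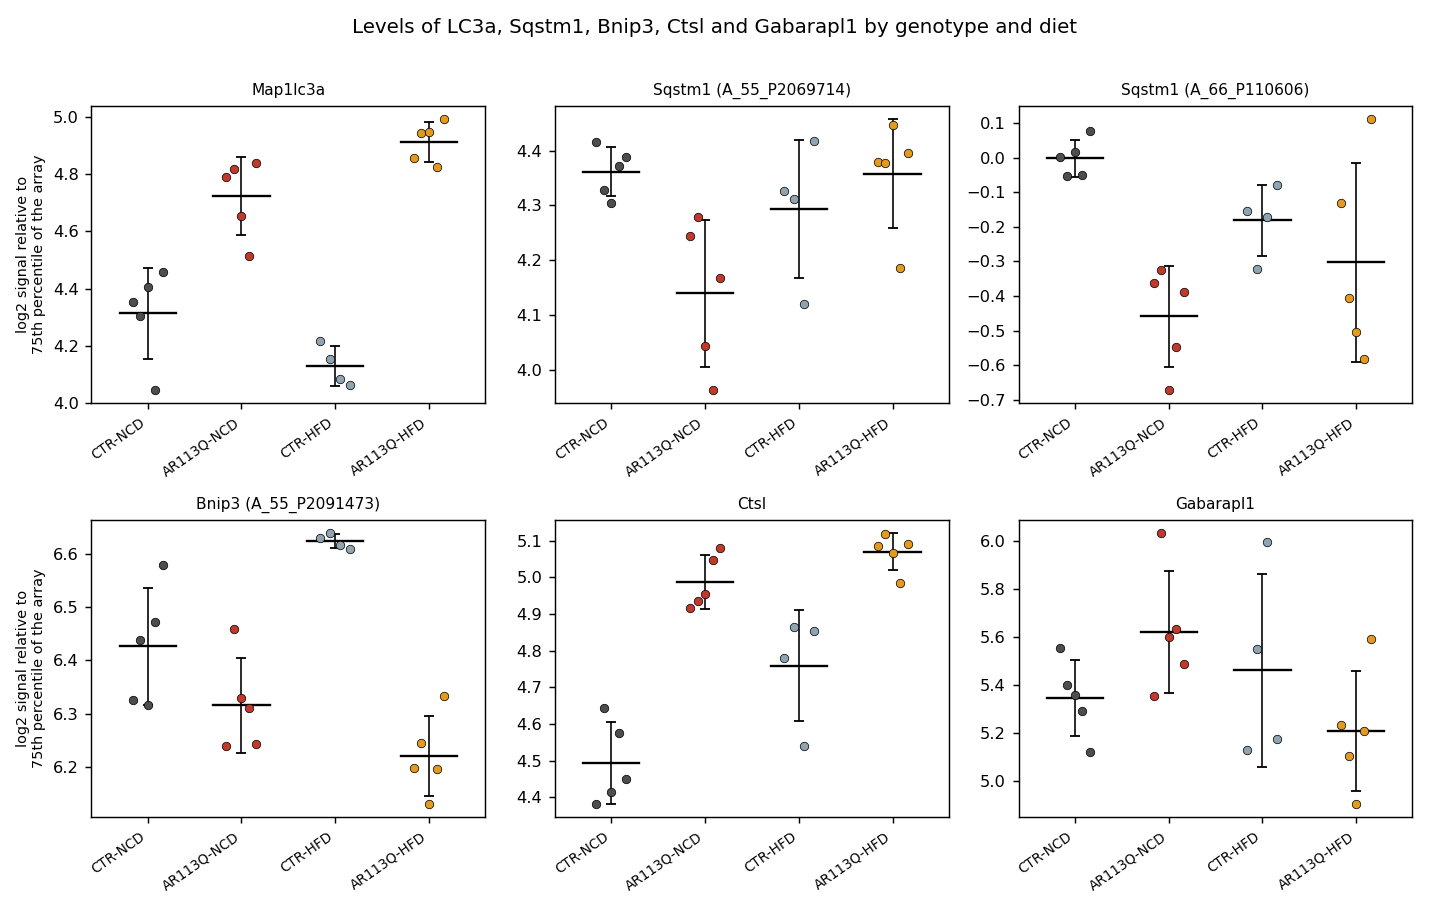
Levels (log2 signal relative to the 75th percentile of the array) of 6 probes in the 4 groups, 1 point an array, with the group mean and SD. Map1lc3a in AR113Q-HFD muscle lies at 4.83 to 4.99 above AR113Q-NCD muscle in the mean, Bnip3 in CTR-HFD muscle lies at 6.61 to 6.64, and Gabarapl1 overlaps in all groups.

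Other genes of the same route were taken from 5 lists, to be read against the 8.08% of all probes higher and 9.3% lower on the NCD and the 7.73% and 10.2% on the HFD. Of 43 probes of other autophagy genes, 6 were higher (14%) and 3 lower (6.98%) on the NCD and 7 (16.3%) and 4 (9.3%) on the HFD, with medians of 0.00 and 0.01. Atg16l2, a paralogue of Atg16l1, was higher by 0.50 and 0.45 with its 2 probes on the NCD (adjusted p = 2.64e-05 and 0.00241) and by 0.36 and 0.48 on the HFD. Tecpr1, a tether between autophagosome and lysosome, rose by 0.33 and 0.24, Ambra1, a Beclin partner, by 0.27 and 0.25, and Uvrag, another, by 0.46 and 0.70 on the NCD and the HFD. Of 36 probes for the control of mTORC1 and TFEB, 5 were higher (13.9%) and 4 lower (11.1%) on the NCD and 4 (11.1%) and 9 (25%) on the HFD. Sesn3, a sestrin that restrains mTORC1, rose by 0.79 and 0.87 (adjusted p = 7.67e-05 and 5.36e-05), and Sesn1 by 0.55 on the NCD (adjusted p = 0.000984) and stood at 0.19 on the HFD (adjusted p = 0.252). Mitf, a relative of Tfeb, fell by 0.34 and 0.50 with one probe, and the other was at -0.19 on the NCD (adjusted p = 0.197) and fell by 0.42 on the HFD. Mtor itself rose by 0.51 and 0.34 with one probe and was at 0.04 and -0.02 by the other.

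Of 44 probes of other lysosomal enzymes, 4 were higher (9.09%) and 6 lower (13.6%) on the NCD and 8 (18.2%) and 6 (13.6%) on the HFD, read against the same shares of all probes. Lgmn, legumain, a protease that processes cathepsins, rose by 0.82 ± 0.069 on the NCD (adjusted p = 1.38e-06) and 0.82 ± 0.073 on the HFD (adjusted p = 2.67e-06). Gusb, beta-glucuronidase, rose by 0.55 and 0.71 with one probe and by 0.38 and 0.43 with the other, while Smpd1, acid sphingomyelinase, fell by 0.40 and 0.44 and Aga, which cleaves glycoproteins, fell by 0.41 on each diet. Of 27 probes of other lysosomal membrane and transport genes, none was higher and 9 were lower (33.3%) on the NCD, with a median of -0.18, and 2 were higher (7.41%) and 7 lower (25.9%) on the HFD, with a median of -0.13. Npc1, which exports cholesterol from the lysosome, had the largest fall, from 0.81 ± 0.095 to -0.42 ± 0.13 (SD, n = 5 each), a log2 fold change of -1.23 ± 0.097 on the NCD (adjusted p = 9.01e-07), and -0.89 ± 0.10 on the HFD (adjusted p = 2.05e-05). Gm2a, the ganglioside activator that works with Hexa, was at -1.07 and -0.35 by its 2 probes on the NCD (adjusted p = 5.18e-05 and 0.0123) and at -0.76 and -0.14 on the HFD, where the second did not pass (adjusted p = 0.382). Tmem192, a lysosomal membrane protein, fell by 0.39 and 0.34 with its 2 probes on the NCD, and on the HFD was at -0.13 (adjusted p = 0.301) and -0.31 (adjusted p = 0.0332). Of 19 probes of the V-ATPase, the proton pump of the lysosome, 2 were higher (10.5%) and 5 lower (26.3%) on the NCD and 3 (15.8%) and 2 (10.5%) on the HFD. Its subunit Atp6v0a1 fell by 0.58 and 0.66 with one probe, and the other did not pass. The subunit Atp6v0b fell by 0.25 on the NCD and was at -0.13 on the HFD (adjusted p = 0.151). Of the accessory subunits, Atp6ap2 rose by 0.43 and 0.46, and Atp6ap1 fell by 0.37 and 0.38 with its 2 probes on the NCD and was at -0.18 and -0.20 on the HFD, where neither passed.

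**Figure D5:**
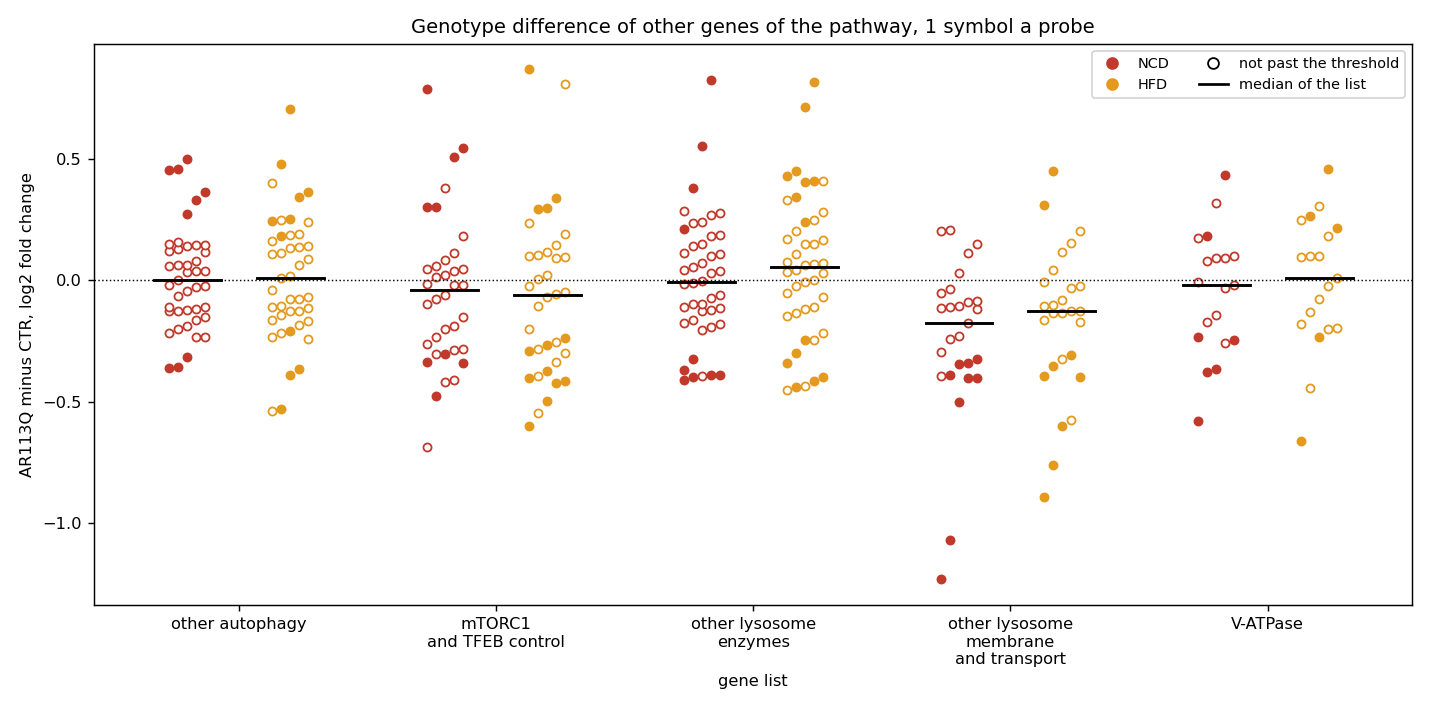
Log2 fold change of AR113Q over CTR muscle (vertical axis) for each probe of 5 further lists, on the NCD (red) and the HFD (orange), with filled symbols past the test and a bar at the median of each list. The lysosomal membrane and transport genes have the lowest medians, -0.18 and -0.13, and the lowest point is Npc1 on the NCD at -1.23.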

How the data were processed

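Total RNA of mouse quadriceps was hybridised to 19 one-colour Agilent arrays. The deposited scanner files hold Cy3 intensity values that the authors made with Agilent Feature Extraction (10.7.3.1 per the submitters' processing notes), background-subtracted and corrected for trends across the array, but not normalised between arrays. Its per-spot flags, other deposited columns, are 0 or 1. The authors also deposited a table of normalised log2 values per transcript, used as an alternative. Their notes name limma with no version, and every column of the files used was mapped to a sample by its label.

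Intensities were taken to log2 minus the 75th percentile of their array, without control spots and outlier spots, and spots of a probe were averaged. Probes entered the test if the scanner software placed a share of 0.5 or more of their spots well above background in 4 or more of the 19 arrays, and 32026 probes of 24741 genes did. A single model of all 4 groups was fitted (lmFit and eBayes, limma 3.58.1, R 4.3.3), with Benjamini-Hochberg adjustment over all probes, for genotype on each diet, diet in each genotype and their interaction. A probe passed at an adjusted p under 0.05. Exact permutation tests were 2-sided. The method was tested on simulated data. Precision is limited by the number of arrays.

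All 33 members are reported by every probe. From each further list, up to 4 genes with the smallest adjusted p on the NCD were named, and 1 gene that this sets is not reported here. The members, the lists and the tests were chosen with earlier results of these data known. Replicate numbers coincide with slides on the NCD, where same-numbered arrays deviated together in every pair (correlations of 0.236 to 0.447, each of the 5 best with its own number). The alternatives changed the normalisation (quantile, median centring, the authors' values), the background correction (normexp, offset 50), the filter (none, or all arrays), the variance (weights per array, trend and robust), the samples (each array left out, only the groups compared) or the call (fold limits), or added a block for slide or for replicate number. A planned description of protein sequences was not made here. Promoters are those of RefSeq (GRCm38.p6), and probe positions are those of the files (mm9).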

Additional observations from a re-analysis of the deposited data

Results flagged for a closer look

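In 5 of 108 groups tested, over the 27 probes of the genes named by the rule, 1 array stood apart from the rest of its group by Dixon's gap criterion, which chance does in about 1 in 20 groups. For Atg10 (A_51_P378858), CTR-HFD replicate 3 was at -1.41 and the next array at -1.92. For Mcoln1 (A_51_P482029), CTR-NCD replicate 4 was the highest, at 2.95, and the next was at 2.86. For Sqstm1 (A_55_P2069714), AR113Q-HFD replicate 4 was the lowest, at 4.19, below 4.38. For Tfe3 (A_55_P2099378), CTR-HFD replicate 4 was at 0.59 above 0.42, and for Ctsd (A_65_P13209) the same array was at 2.90 above 2.79.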

How the results depend on the processing

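Counts of member probes are given as higher and lower on the NCD, then on the HFD, and were 8 and 9, then 7 and 10, as reported (limma, adjusted p under 0.05). They were 5 and 1, then 4 and 2, with median centring, 2 and 0, then 3 and 1, with normexp, which shifted the median of all probes by -0.51 on the NCD, and 1 and 0, then 3 and 0, with the fold limits. In the authors' values, which hold 38 of the 52 probes, they were 7 and 5, then 6 and 5. With only the groups compared, 6 were lower on the HFD. Leaving out each array gave 7 to 9 higher and 6 to 12 lower on the NCD, and 6 to 8 higher and 6 to 11 lower on the HFD, the lowest, 6, without CTR-HFD replicate 4. With the replicate block they were 9 and 11, then 6 and 14. On the NCD it added Ctsb, Mcoln1 and Ulk1 and lost none, and on the HFD it lost Lamp2 (adjusted p = 0.0584) and added Bnip3l (A_55_P1961461), Cd63, Gabarap (A_55_P2010223) and Gla. With the slide as a block, which lost no call, counts were 9 and 12, then 8 and 14, adding Ctsb, Mcoln1, Ulk1 and Bnip3l (A_55_P2046943) on the NCD and both Ulk2 probes, Bnip3l (A_55_P1961461), Cd63 and Gla on the HFD. Diet and interaction counts stayed at 0 in all alternatives run. The sign turned for Tfeb (0.031), Cd63 (0.064) and Sqstm1 by A_55_P2069714 (0.066) on the NCD with normexp. Tfe3, whose differences lie near 0, turned by A_55_P2099378 to -0.0021 on the NCD without AR113Q-NCD replicate 4 (range -0.0021 to 0.0964 with an array left out) and, on the HFD, to 0.019 with median centring and 0.0033 without CTR-HFD replicate 4 (range -0.0846 to 0.0033). By A_55_P2099379 it turned on the HFD to 7e-04 with quantile normalisation, 0.060 with median centring, 0.0047 with the slide as a block and up to 0.0727 with an array left out (range -0.0653 to 0.0727). The cause was not tested. The fold limits were applied to the counts only. On the calls of single probes, Atg10 (A_55_P2182433) and Ctsl on the NCD and Wipi1 (A_51_P158044) on the HFD held in all other alternatives run. Ctsl, at 0.49 on the NCD, lay under the limit of 1.5-fold. Median centring and normexp each lost the NCD calls of Map1lc3a, Lamp1, Lamp2 (A_52_P483280), Hexa, both Ctsd probes and Sqstm1 by A_66_P110606. The HFD calls of Hexa, Ctsl and both Bnip3 probes were lost with them too. Normexp also lost the NCD call of Wipi1 and the calls of Atg10 by A_51_P378858 on both diets.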
